A study of Mus musculus with 4 samples.

Results

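The genes described here are 10 heat shock proteins and chaperones: the small heat shock proteins Hspb1, Hspb6, Hspb8 and Cryab, the Hsp70 proteins Hspa1a, Hspa1b and Hspa8, the Hsp90 protein Hsp90aa1, the J-domain protein Dnajb1 and the cochaperone Bag3. They were chosen by name, with earlier results of these data known. All 10 were found, each as a single transcript, among 18674 gene names in the deposited table. RNA sequencing of the lumbar spinal cord was carried out in 4 libraries, 1 per condition. WT and G93A mice each received vehicle or SD, the polyamine spermidine, which gives the conditions WT vehicle, G93A vehicle, WT + SD and G93A + SD. G93A mice carry a mutant human SOD1 transgene and are a model of ALS, in which motor neurons degenerate. The study used males of the G93A H1 high-expresser strain on a B6/SJLF1 background, and the mice were 100 days old after 30 days of injections given 4 times a week. The vehicle is named as PBS for the RNA samples and as saline elsewhere in the methods, and how many animals went into a library is not stated. Since each condition had 1 library, no difference could be compared with a spread between animals, no test was made and no p-value is given.

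Chaperones hold other proteins in a soluble, foldable state. Small heat shock proteins bind unfolding proteins without using ATP and keep them from aggregating. Hsp70 proteins refold such clients in cycles of ATP hydrolysis, which J-domain proteins start and which nucleotide exchange factors such as the Bag proteins end, and Hsp90 acts on clients at a later stage. Bag3 also joins Hspb8 to Hsp70 in a complex that delivers misfolded proteins to autophagosomes. Heat shock factor 1, encoded by Hsf1, drives many of these genes by binding inverted repeats of the bases GAA. Mutant SOD1 is itself a protein that misfolds and aggregates, and reactive astrocytes are known to express small heat shock proteins.

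The promoters are shown for the heat shock element, the repeat of GAA described above. Heat shock genes were chosen by name, and many are known to be driven through this repeat. Its presence is therefore not independent of the choice of names. RefSeq promoter windows (GRCm38.p6, 250 bases before to 50 bases after a transcription start) were matched for 7 of the 10 genes. The heat shock element core was searched as GAANNTTC and as TTCNNGAA, each of which reads the same on both strands. GAANNTTC was present in 6 of the 7 genes and TTCNNGAA in 0, beside 9.04% and 9.60% of 27025 genes with a window. The sequences below run 5′ to 3′ on the gene's strand from 250 bases before to 30 bases after the start, with the core in capitals. Hspb1, Hspb6 and Hspb8 are shown because they had the largest folds in G93A + SD against WT + SD, and Hspa1a as an inducible Hsp70 gene.
Hspb1, chr5:135887669-135887948, plus strand: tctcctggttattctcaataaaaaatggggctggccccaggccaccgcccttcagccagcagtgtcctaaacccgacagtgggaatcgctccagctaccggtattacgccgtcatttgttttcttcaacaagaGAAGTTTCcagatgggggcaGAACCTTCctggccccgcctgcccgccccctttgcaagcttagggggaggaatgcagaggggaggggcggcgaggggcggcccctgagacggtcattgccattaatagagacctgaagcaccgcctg
Hspb6, second start, chr7:30553051-30553330, plus strand: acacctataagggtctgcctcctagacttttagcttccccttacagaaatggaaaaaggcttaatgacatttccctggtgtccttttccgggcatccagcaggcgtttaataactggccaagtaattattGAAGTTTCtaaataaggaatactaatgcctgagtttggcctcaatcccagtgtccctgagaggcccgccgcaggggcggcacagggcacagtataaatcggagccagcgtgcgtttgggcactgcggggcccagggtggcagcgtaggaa
Hspb8, chr5:116422835-116423114, minus strand: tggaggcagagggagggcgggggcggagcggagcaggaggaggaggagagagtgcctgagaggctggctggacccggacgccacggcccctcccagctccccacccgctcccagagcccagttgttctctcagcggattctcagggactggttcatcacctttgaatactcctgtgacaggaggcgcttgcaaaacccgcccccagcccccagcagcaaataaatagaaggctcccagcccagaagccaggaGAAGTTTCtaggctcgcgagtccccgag
Hspa1a, chr17:34972127-34972406, minus strand: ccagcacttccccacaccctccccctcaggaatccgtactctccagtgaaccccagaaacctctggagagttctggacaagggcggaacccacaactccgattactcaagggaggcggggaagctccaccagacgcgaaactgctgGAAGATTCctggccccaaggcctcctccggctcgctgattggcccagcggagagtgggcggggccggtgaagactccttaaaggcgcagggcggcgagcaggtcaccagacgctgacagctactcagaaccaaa

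Hspb1 held 2 cores, at bases 134 to 141 and 154 to 161 of its window. The core of Hspb6 lay at bases 131 to 138 of the window of its second RefSeq start. The window of its first start, which is the one closest to the transcript in the deposited table, held none. In Hspb8 the core lay at bases 253 to 260, just after the start. Hspa1a and Hspa1b both held it at bases 147 to 154, and their windows were identical at 296 of 300 bases (98.7%). The core of Bag3 lay at bases 293 to 300, beyond the stretch printed for the other genes. Neither window of Dnajb1 held a core. A match describes the letters in the window and was not tested as a binding site.

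**Figure D1:**
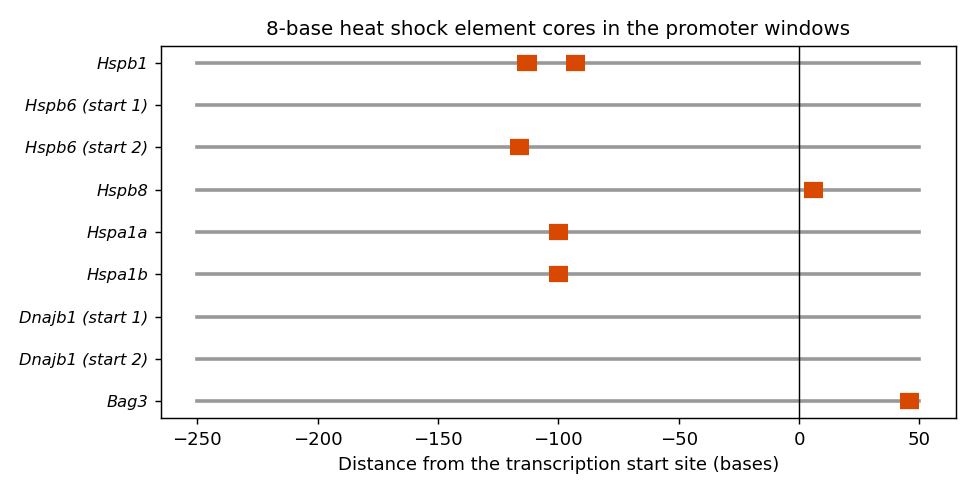
Position of the 8-base core of the heat shock element in the 300-base promoter windows of 7 chaperone genes, in bases from the transcription start (black line), with 1 grey line per start site. Orange marks the core, which lies upstream of the start in Hspb1, the second start of Hspb6, Hspa1a and Hspa1b, and after it in Hspb8 and Bag3.

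The deposited values were taken as RPKM, that is read numbers scaled to transcript length and to library size, so that levels can be compared between genes and libraries. The estimated depth was 36800000 to 38600000 read pairs per library. A gene was called higher or lower in a comparison where the levels differed at least 1.5-fold on a log2 scale with a pseudocount of 0.1 RPKM. Comparisons were made over the 12987 gene names with a mean of at least 1 RPKM, which all 10 chaperone genes passed. Each library serves in 2 of the 4 comparisons.

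Hspb1 and Hspb6, both small heat shock proteins, differed most between G93A and WT spinal cord among the 10 genes. In G93A vehicle against WT vehicle, 4 of the 10 genes were higher (Hspb1, Hspb6, Hspb8 and Hspa1a) and 0 were lower, where 13.1% of all genes tested were higher and 4.34% lower. In G93A + SD against WT + SD, 6 were higher, the same 4 with Hspa1b and Hspa8, and 0 were lower, beside 15.8% and 7.85% of all genes. The same 4 genes were higher in both comparisons of genotypes, as were 11.7% of all genes tested. Hspa1b and Hspa8, called higher only with SD, had their lowest levels in WT + SD (1.96 and 50.1 RPKM). Hspa8 in G93A + SD, at 81.0 RPKM, lay below WT vehicle, at 107 RPKM. The median log2 fold change of the 10 genes was 0.43 with vehicle and 0.73 with SD, and that of all genes tested was 0.050 and 0.047. The 10 genes were chosen with earlier results known, so their counts and medians beside all genes are not independent of that choice. In WT mice, 0 genes were higher and 1, Hspa8, was lower with SD, beside 0.732% and 1.16% of all genes. In G93A mice, 2 were higher with SD (Hspb1 and Hspb6) and 0 were lower, beside 1.24% and 0.932% of all genes. The medians of the 10 genes were -0.03 in WT and 0.03 in G93A mice, and those of all genes 0.015 and 0.0086.

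**Figure D2:**
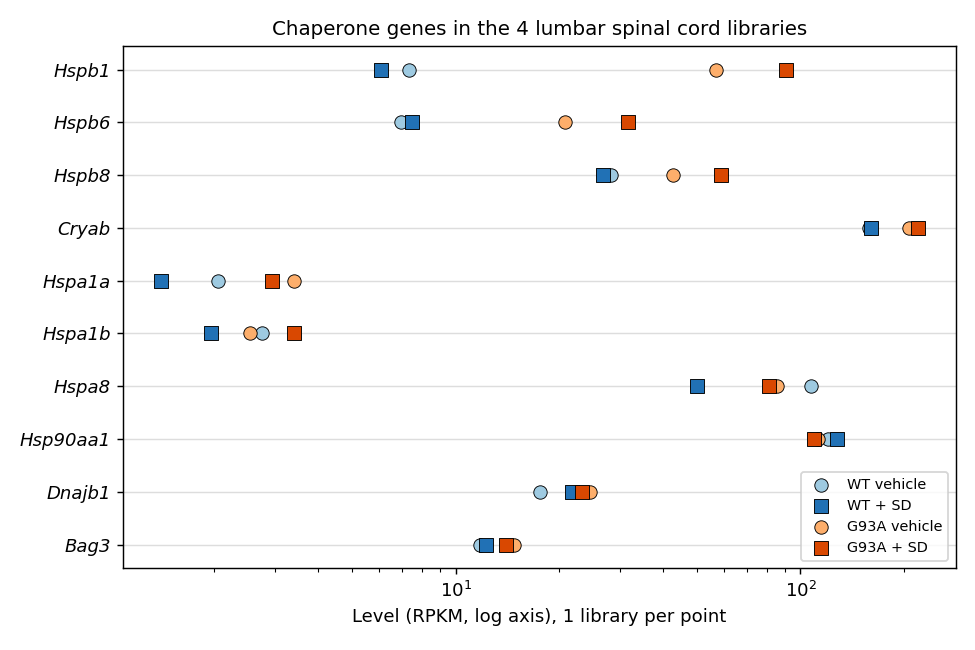
Level of each chaperone gene (RPKM, log axis) in the 4 libraries, with 1 point per library. Both G93A libraries lie above both WT libraries for Hspb1, Hspb6, Hspb8, Cryab, Hspa1a, Dnajb1 and Bag3, and below them for Hsp90aa1. How many of all genes are separated in this way was not counted. Hspa8 has its lowest point, 50.1 RPKM, in WT + SD.

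Hspb1 encodes Hsp27 (Hsp25 in the mouse), a small heat shock protein that also binds and stabilises actin filaments. It measured 7.32 RPKM in the WT mice on vehicle and 6.08 in those on SD, and 56.8 and 91.1 RPKM in the G93A mice on vehicle and on SD. Both G93A libraries thus lay far above both WT libraries, and the G93A + SD library was the highest. The difference between genotypes was 7.76-fold with vehicle (log2 fold change 2.94) and 15.0-fold with SD (3.88), which placed Hspb1 as the 103rd and the 73rd most raised of the 12987 genes. SD went with a 1.60-fold higher level in G93A mice (log2 0.68), the 99th largest rise in that comparison. In WT mice the log2 difference with SD was -0.27, short of the 1.5-fold threshold. Among the 10 genes Hspb1 ranked 7th by level in WT vehicle and 3rd in G93A + SD. The gene has 3 exons at chr5:135887919-135889563 on the plus strand (GENCODE M21, GRCm38). Of its windows of 53 bases, 59.9% were identical to a pseudogene transcript, chiefly Hsp25-ps1, so reads of these genes could have been assigned to either.

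Hspb6 (Hsp20), a small heat shock protein best known from muscle and also made by astrocytes, was likewise higher in both G93A libraries. Its level was 6.95 RPKM (vehicle) and 7.48 RPKM (SD) in WT mice, and 20.8 RPKM (vehicle) and 31.7 RPKM (SD) in G93A mice. The genotypes did not overlap, and the G93A libraries differed more from each other than the WT libraries did. Hspb6 was 2.99-fold higher in G93A mice with vehicle and 4.24-fold higher with SD. In G93A mice it was 1.53-fold higher with SD than with vehicle, just past the threshold. The gene lies at chr7:30552178-30555443 on the plus strand and overlaps Lin37 and Proser3 on the other strand. No source says that strand was used in counting, and reads of the overlaps then cannot be told apart. Lin37 itself was nearly level, at 4.66, 5.28, 5.05 and 5.50 RPKM in the same order.

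Hspb8 (Hsp22) is the small heat shock protein that partners Bag3 in selective autophagy. With vehicle it was at 28.2 RPKM in WT and 42.7 RPKM in G93A mice, and with SD at 26.7 and 58.7 RPKM. The G93A libraries were again both above the WT libraries, by smaller folds than for Hspb1 and Hspb6. The difference between genotypes was 1.52-fold with vehicle and 2.19-fold with SD. The log2 value with vehicle, 0.60, was 0.54 and below the threshold once libraries were rescaled by median ratios. With SD it was 1.37-fold higher than with vehicle in G93A mice, short of the threshold. Hspb8 lies on chromosome 5, like Hspb1, at chr5:116408491-116422864 on the minus strand, and shared none of its 53-base windows with another gene.

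Cryab encodes alpha B-crystallin, the small heat shock protein of oligodendrocytes and astrocytes, and had the highest level of the 10 genes in every library. It measured 158 RPKM (vehicle) and 160.04 RPKM (SD) in WT mice, and 206 RPKM (vehicle) and 219 RPKM (SD) in G93A mice. The G93A libraries were higher by 1.30-fold with vehicle and 1.37-fold with SD, and neither passed the threshold. The gene has 4 exons at chr9:50751325-50756636 on the plus strand and overlaps Hspb2 on the other strand, which stayed below 1 RPKM in all 4 libraries.

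The proportions of the small heat shock proteins differed between genotypes as well. Their summed level was 200.3 RPKM in both WT libraries, 326 in G93A vehicle and 400.1 in G93A + SD. Without Cryab the sum of the other 3 genes was 42.4 and 40.3 RPKM in WT mice on vehicle and on SD, and 120.4 and 181 RPKM in G93A mice. Cryab exceeded Hspb1 by 21.5-fold and 26.3-fold in the WT libraries (vehicle and SD), and by 3.62-fold and 2.40-fold in the G93A libraries.

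**Figure D3:**
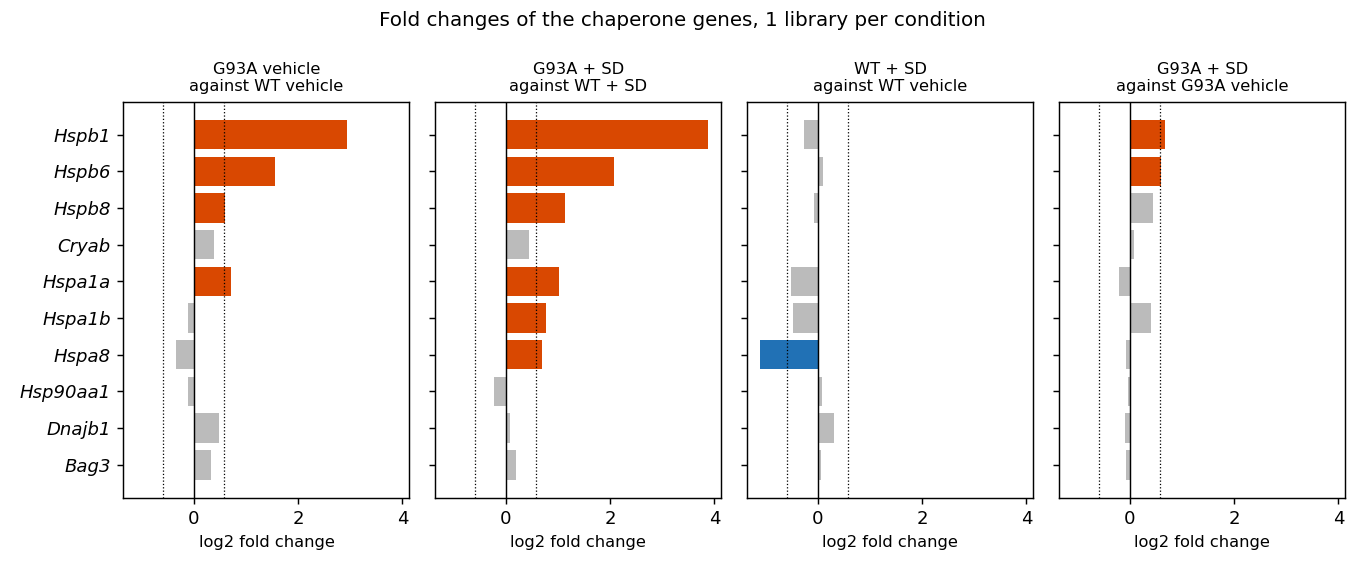
Log2 fold change of each chaperone gene in the 4 comparisons, 1 library per condition. Dotted lines mark 1.5-fold, orange bars are higher and blue bars lower past it: 4 and 6 genes are higher in the comparisons of genotypes, Hspa8 is lower in WT + SD, and Hspb1 and Hspb6 are higher in G93A + SD against G93A vehicle.

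Hspa1a and Hspa1b are the stress-inducible Hsp70 genes, 2 neighbouring single-exon copies on the minus strand of chromosome 17, at chr17:34969190-34972156 and chr17:34956436-34959238. They had the lowest levels of the 10 genes in all 4 libraries. Hspa1a measured 2.05 RPKM (vehicle) and 1.40 RPKM (SD) in WT mice, and 3.41 RPKM (vehicle) and 2.94 RPKM (SD) in G93A mice. Both G93A libraries were above both WT libraries, and the folds between genotypes were 1.66 with vehicle and 2.09 with SD. Hspa1b measured 2.76, 1.96, 2.53 and 3.40 RPKM in the same order. The genotypes overlapped for Hspa1b, which was 1.74-fold higher in G93A + SD than in WT + SD but not in G93A vehicle against WT vehicle (log2 -0.12). The 2 genes share 1692 of the 2751 windows of 53 bases in Hspa1b (61.5%), so reads could be split between them. Their sum, an alternative chosen after seeing the data, was 4.81, 3.36, 5.94 and 6.34 RPKM. For the sum the log2 fold change between genotypes was 0.30 with vehicle, below the threshold, and 0.90 with SD. In WT mice the log2 fold change of the sum with SD was -0.50, short of the threshold.

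Hspa8 encodes Hsc70, the constitutive Hsp70 that also uncoats clathrin vesicles and carries clients to chaperone-mediated autophagy. It measured 107 RPKM (vehicle) and 50.1 RPKM (SD) in WT mice, and 85.2 RPKM (vehicle) and 81.0 RPKM (SD) in G93A mice. The WT + SD library stood apart below the other 3. Among WT mice, Hspa8 was lower with SD by 2.14-fold (log2 -1.10), the 42nd strongest fall among the genes tested. The log2 difference between the G93A libraries was -0.07. Hspa8 was also 1.62-fold higher in G93A + SD than in WT + SD, whereas its log2 fold change between the genotypes with vehicle was -0.33. An estimated 4588 read pairs lay behind the WT + SD value and 7490 to 9456 behind the others. The gene has 9 exons at chr9:40800984-40810087 on the plus strand and hosts small nucleolar RNAs in its span. Of its sequence, much is duplicated: 74.2% of its 53-base windows were shared with transcripts of 13 other genes, among them the gene model Gm15459. Whether the assignment of those reads had a part in the low value was not tested.

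Hsp90aa1 encodes the inducible Hsp90 alpha, and was the second most abundant of the 10 genes in every library. It measured 120.4 RPKM (vehicle) and 128 RPKM (SD) in WT mice, and 112 RPKM (vehicle) and 109 RPKM (SD) in G93A mice. The G93A libraries were the lower ones, with log2 fold changes of -0.10 with vehicle and -0.22 with SD, and the gene passed the threshold in none of the 4 comparisons. Its ratio to Hsp90ab1, the constitutive paralogue, stayed between 0.211 and 0.228. The gene has 11 exons at chr12:110690605-110702728 on the minus strand, and 57.8% of its 53-base windows were shared with other gene models, chiefly Gm12346.

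Dnajb1 (Hsp40) is the J-domain protein that hands clients to Hsp70. With vehicle it measured 17.6 RPKM in WT and 24.6 RPKM in G93A mice, and with SD 21.8 and 23.2 RPKM. WT vehicle was the lowest library and the other 3 lay close together. The log2 fold change was 0.48 between genotypes with vehicle, 0.09 between them with SD and 0.31 between the WT libraries, all below the threshold. The gene has 3 exons at chr8:83608193-83612653 on the plus strand.

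Bag3, the nucleotide exchange factor that links Hsp70 and Hspb8 to autophagy, measured 11.8 RPKM (vehicle) and 12.3 RPKM (SD) in WT mice, and 14.8 RPKM (vehicle) and 14.0 RPKM (SD) in G93A mice. Both G93A libraries were above the WT libraries, by log2 fold changes of 0.33 with vehicle and 0.19 with SD that did not reach 1.5-fold. The gene has 4 exons at chr7:128523616-128546981 on the plus strand and shared none of its windows with another gene. Its partner Hspb8 differed more, so that the ratio of Hspb8 to Bag3 was 2.40 (vehicle) and 2.18 (SD) in WT mice, and 2.89 (vehicle) and 4.19 (SD) in G93A mice. Bag1, the family member tied to proteasomal degradation, was at 63.6 to 66.6 RPKM in all 4 libraries, and the ratio of Bag3 to Bag1 was 0.179 and 0.187 in the WT libraries and 0.222 and 0.220 in the G93A libraries. Of the other genes of this autophagy route, Sqstm1, which encodes the receptor p62, measured 166 and 158 RPKM in the WT libraries and 195 and 205 RPKM in the G93A libraries, and stayed below the threshold in both comparisons of genotypes. Synpo2, which encodes the Bag3-binding protein synaptopodin-2, was higher in both, at 1.25 and 1.26 RPKM in WT mice and 2.05 and 2.84 RPKM in G93A mice (vehicle first).

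In the values that follow, 4 levels stand for WT mice on vehicle and on SD, then G93A mice on vehicle and on SD. Of 67 other genes that passed the filter, which are chaperones, cochaperones, heat shock factors and the autophagy partners Sqstm1 and Synpo2, 3 were higher and 1 lower in G93A vehicle against WT vehicle (4.48% and 1.49%), and 3 were higher and 5 lower in G93A + SD against WT + SD (4.48% and 7.46%). The higher genes were Hspa2, Hspe1 and Synpo2 with vehicle and Hspa2, Hspb11 and Synpo2 with SD. The median log2 fold changes of the 67 genes were 0.02 and -0.05. With SD, 0 of the 67 changed in WT mice and 1 was lower in G93A mice. Of the 7 other small heat shock proteins, Hspb11, which belongs to the intraflagellar transport complex, was the one that passed the filter. It measured 6.39, 5.74, 9.20 and 9.74 RPKM and was higher in G93A + SD against WT + SD (log2 0.75).

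Of 12 other Hsp70 and Hsp110 proteins, Hspa2, known from the testis, was higher in both comparisons of genotypes, at 6.30, 6.10, 11.6 and 14.2 RPKM. Hspa4l, a member of the Hsp110 family, was lower in both, at 64.4, 66.3, 40.8 and 34.0 RPKM. Hsph1 (Hsp105), the Hsp110 exchange factor of Hsp70, passed the threshold only between the genotypes on SD, where it was lower, at 94.9, 110.2, 89.2 and 69.2 RPKM. Hspa12a, a distant member of the Hsp70 family, was lower in the same comparison, at 49.2, 55.4, 34.1 and 29.1 RPKM.

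Among 14 Hsp90 paralogues and cochaperones, Stip1, the adaptor between Hsp70 and Hsp90, was lower in G93A + SD against WT + SD (68.4 and 103.6 RPKM, log2 -0.60), and 0 passed in the other comparisons. Among 16 other J-domain proteins, Dnajc6 (auxilin), which works with Hspa8 in uncoating clathrin vesicles, was lower in that comparison, at 31.0 and 49.9 RPKM. The 8 Bag proteins and other Hsp70 cochaperones passed the threshold in none of the 4 comparisons. Of 10 chaperonins, Hspe1, the mitochondrial cochaperonin, stood apart in 1 library, at 7.60, 9.97, 19.7 and 9.83 RPKM. It shared 42.7% of its 53-base windows with other genes, and its partner Hspd1 measured 27.0, 30.6, 31.8 and 30.8 RPKM.

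The heat shock factors and their binding protein Hsbp1 did not pass the threshold in any comparison (0 of 4 genes). Hsf1 measured 9.29, 8.54, 8.93 and 8.54 RPKM, and Hsf2, which can pair with it, 8.76, 9.53, 9.29 and 9.63 RPKM. These are RNA levels, and Hsf1 is known to be controlled largely at the protein level. Immediate early genes, which respond to activity and to the handling of tissue, were higher in 9 of 10 cases with vehicle and in 8 of 10 with SD in G93A mice, and 1, Arc, was lower with SD (3.99 against 7.27 RPKM). The summed level of all 12 listed, including those below the filter, was 46.1 and 55.3 RPKM in the WT libraries and 119 and 133 RPKM in the G93A libraries. Fos, the best known of them, measured 5.78, 8.37, 23.4 and 30.3 RPKM. Atf3 had the largest log2 fold changes of the list between genotypes (4.34 and 4.36), at 0.606, 0.760, 14.2 and 17.5 RPKM. The part of the immediate early genes in the chaperone differences was not tested.

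**Figure D4:**
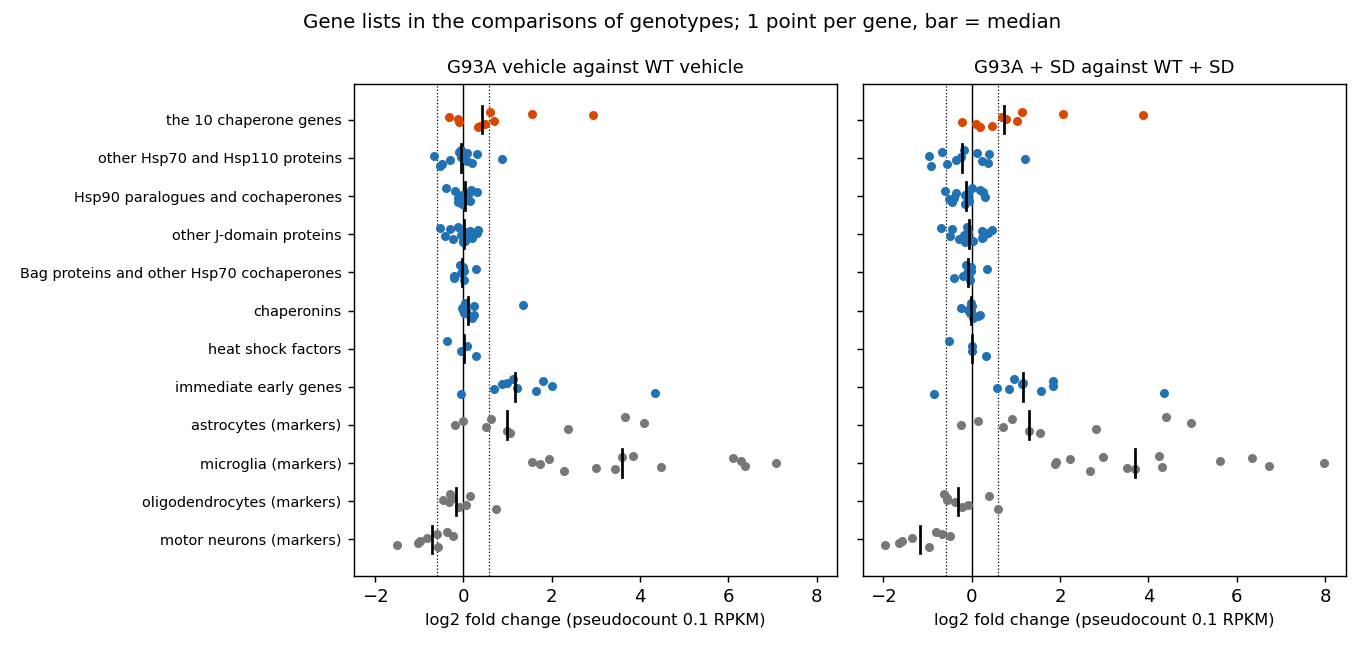
Log2 fold change of each gene that passed the filter in the comparisons of genotypes with vehicle (left) and with SD (right), by gene list, with 1 point per gene and a black bar at the median. The 10 chaperone genes have medians of 0.43 and 0.73, the 6 lists of other chaperones and heat shock factors drawn here have medians between -0.21 and 0.10, and astrocyte and microglial markers lie higher and motor neuron markers lower. Not drawn are the other small heat shock proteins (Hspb11 only, 0.52 and 0.75) and the autophagy partners (medians 0.12 and 0.17), which lie above that range.

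Cell type markers moved with the same contrasts. In bulk tissue, fewer cells of a type and less RNA per cell cannot be told apart. All 13 microglial markers were higher in both comparisons of genotypes, with sums of 113, 97.8, 1033 and 1058 RPKM. Of 9 astrocyte markers, 6 were higher with vehicle and 7 with SD, and their sums were 1513, 1450, 4329 and 5392 RPKM. The microglial and astrocyte sums and the levels of Hspb1 and Hspb8 stood in the same order, with WT + SD lowest and G93A + SD highest, while Hspb6 had WT vehicle lowest. How many of all genes share this order was not counted. Of the astrocyte markers, 2 had log2 fold changes between genotypes below 0 with vehicle and 1 with SD. S100b was below 0 in both, at 465, 469, 411 and 396 RPKM. In G93A + SD against G93A vehicle, 2 astrocyte markers were higher, the reactive markers Vim (586 and 379 RPKM) and Serpina3n (772 and 473 RPKM). Of 8 motor neuron markers that passed the filter, 5 were lower with vehicle and 7 with SD between genotypes, and 4 were lower in G93A + SD against G93A vehicle. The sums of all 10 were 1850, 1765, 986 and 635 RPKM. Oligodendrocyte markers, which bear on Cryab, summed to 9038 and 9317 RPKM in the WT libraries and 7530 and 6943 RPKM in the G93A libraries. The 9 skeletal muscle markers, which bear on Hspb6 and Synpo2, summed to between 1.28 and 1.57 RPKM in each library, and 3 of them were listed at 0 in some library. Markers of other spinal neurons summed to 258, 256, 172 and 166 RPKM, and 3 of 8 were lower in each comparison of genotypes. Markers of all neurons summed to 2033, 2030, 1347 and 1163 RPKM, and those of Schwann cells to 111, 112, 145 and 138 RPKM. The sums for endothelial and mural cells were 37.2, 35.2, 47.8 and 45.9 RPKM, but 5 of the 8 markers had log2 fold changes below 0 in both comparisons of genotypes, and Tagln, a smooth muscle marker, went the other way at 2.48, 4.01, 14.0 and 19.4 RPKM. No marker of motor neurons, astrocytes or oligodendrocytes was at 0 in any library, so the cells that define the tissue were represented. No value used here checks the genotype or the injections. The part of cell composition in the chaperone differences was not tested.

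The genes whose profile over the 4 libraries was nearest to each of the 3 most variable chaperones were sought among 8847 names with a mean of at least 5 RPKM, by Euclidean distance between centred log2 levels. Nearest to Hspb1 was S100a6, a calcium-binding protein of astrocytes, at a distance of 0.192, with 22.2, 21.7, 199 and 318 RPKM. It was followed by the serine protease Prss23 at 0.227 and the prostaglandin-degrading enzyme Hpgd at 0.246. Nearest to Hspb6 were BC064078 and the deubiquitinase Otud1, both at 0.102, and Tnfrsf12a, the receptor of the cytokine TWEAK, at 0.115. Nearest to Hspa1a were Lpcat2 at 0.0927, Gabra2 at 0.117 and Trappc6a at 0.125. With 4 points per profile, closeness of this kind is a description only.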

How the data were processed

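Lumbar spinal cord RNA from 4 conditions was sequenced in 1 library each, and conditions were taken from the labels. The authors deposited 1 table with 1 value column per library, whose unit was inferred to be RPKM from the values. Per the methods, the authors aligned reads with STAR to GRCm38 (mm10), as the submitters' processing notes also name, with HTSeq counting on Ensembl genes. The table lists RefSeq transcripts, and how its values per RefSeq transcript were made is not given in the sources used here. The authors' ratio columns were not used.

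Rows of a name were averaged (23750 rows, 18674 names). Log2 fold changes used a pseudocount of 0.1 RPKM and names with a mean of at least 1 RPKM over the 4 libraries, and 1.5-fold was the threshold. The rule for named genes was all 10 members, up to 3 genes per list and direction past the threshold in either comparison of genotypes, and the 3 nearest profiles of the 3 members with the widest range. Cell type markers, heat shock factors and partners were named beside them. The members and lists were chosen with earlier results of these data known. Of the listed genes, Bag6, Rbfox3 and Ncmap were not analysed here. Depth was estimated from the smallest steps of low values and is not exact. Windows of 53 bases were compared with GENCODE M21 transcripts of other genes, and the promoters are from RefSeq (GRCm38.p6). Alternatives were pseudocounts of 1 and 0.01 RPKM, no filter, a mean of at least 5 RPKM, median-ratio scaling, the sum or the highest row of a name, and 2-fold. Scripts ran in Python 3.11.15 with pandas 2.3.3, numpy 2.4.6 and, for plots, matplotlib 3.10.9.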

Additional observations from a re-analysis of the deposited data

Results flagged for a closer look

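Hspb1 went in opposite directions with SD in the 2 genotypes. Its log2 fold change was -0.27 in WT mice and 0.68 in G93A mice, a difference of 0.94. Hspa1b did the same, with -0.47 in WT mice and 0.41 in G93A mice, a difference of 0.89. Hspa1b shares much of its sequence with Hspa1a, which was -0.52 in WT and -0.21 in G93A mice, and the sum of both genes had 0.09 in G93A mice, below 1.2-fold, beside -0.50 in WT mice. Hspa8 went in opposite directions between genotypes, with -0.33 under vehicle and 0.69 under SD, a difference of 1.02. For each of the 3 genes both values exceeded 1.2-fold, although that of Hspb1 in WT mice was -0.23, below it, at a pseudocount of 1 RPKM. With 1 library per condition, none of these differences was tested. WT + SD was the lowest of the 4 libraries for all 3, at 6.08 RPKM for Hspb1, 1.96 RPKM for Hspa1b and 50.1 RPKM for Hspa8.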

How the results depend on the processing

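Of the members' 120 log2 fold changes under the other pseudocounts and median-ratio scaling, 110 stayed within 0.1 of the reported value and on the same side of the threshold, 7 moved by more and 3 fell below the threshold. Each member has 1 row, so the sum and the highest row of a name could not change it. Hspa1a in G93A + SD against G93A vehicle, below the threshold either way, went from -0.21 to 0.09 when summed with Hspa1b. Hspa1a in G93A vehicle against WT vehicle fell to a log2 value of 0.53 at a pseudocount of 1 RPKM and of 0.30 when summed with Hspa1b, which was added after seeing the data. Hspa1b in G93A + SD against WT + SD fell to 0.57 with a pseudocount of 1 RPKM, and Hspb8 with vehicle to 0.54 under median-ratio scaling. At 2-fold, 0 members were higher with SD in G93A mice and 2 between the genotypes on vehicle. The members' median in G93A + SD against WT + SD moved to 0.63 with a pseudocount of 1 RPKM and to 0.57 at a mean of at least 5 RPKM. Their median in WT + SD against WT vehicle, -0.03, was 0.04 at a mean of at least 5 RPKM and 0.02 with Hspa1a and Hspa1b summed. The counts of all names depended on the filter: 1696 names were higher in G93A vehicle against WT vehicle, 2687 with no filter, 886 at a mean of at least 5 RPKM and 869 at 2-fold. The corresponding counts with SD were 2055, 3189, 1086 and 1124. Lower names between genotypes numbered 563 with vehicle, 991 with no filter, 325 at a mean of at least 5 RPKM, 332 at a pseudocount of 1 RPKM and 71 at 2-fold, and with SD 1020, or 197 at 2-fold. Between SD and vehicle in WT mice, 95 names were higher (420, 25, 38 and 23 under the same 4 alternatives) and 151 lower (522, 48, 66 and 54). In G93A mice, 161 were higher (555, 65, 91 and 37) and 121 lower (476, 54, 66 and 32). Median-ratio factors ran from 0.977 to 1.03. No paired analysis was possible because each condition has 1 library. The low levels of Hspa1a and Hspa1b rest on an estimated 159 to 384 read pairs per gene and library.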
